A study of Mus musculus with 2 samples.

Results

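Dendritic cells (DC) are the cells that the authors' annotation of colitis-associated tumors of the mouse names DC. All cells with that name in both single-cell RNA-seq libraries were taken, 778 of 38883 annotated cells. The library labelled *Mir34a*F/F held 347 DC among 20312 cells, or 1.71% with a 95% interval of 1.53 to 1.90%. The library labelled *Mir34a*ΔMye held 431 DC among 18571 cells, or 2.32% (2.11 to 2.55%). Among cells that were not epithelial, DC made up 3.99% and 4.95%. Values given as a pair are always in this order of libraries.

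The study asked how loss of *Mir34a*, which encodes the microRNA miR-34a, in myeloid cells alters colitis-associated colon tumors. Both libraries came from female mice of 6 to 10 weeks that received azoxymethane, a colon carcinogen, at 10 mg/kg. They then drank dextran sulfate sodium, which injures the colon epithelium, for 5 days at 2.5% in the first cycles, each followed by 16 days of water, and for 5 days at 2% in the last. They were sacrificed on day 110. Each library pooled the tumors of 3 mice, with 6 to 8 tumors, and 30000 cells were loaded. In the group with the label Mir34a_Mye_KO, Cre recombinase driven from the *Lyz2* locus (LysM-Cre) removes floxed *Mir34a* in myeloid cells. The group with the label Mir34a_F/F consists of littermates that carry the same floxed alleles without Cre. This Cre is known to act in macrophages and neutrophils and only in part of DC, which limits the model for the cells described here.

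With 1 library per genotype and no mouse of origin for the cells in the annotation used here, no test between genotypes was possible and no p-value is given. All intervals are exact 95% intervals and cover counting error only, not the spread between mice. Depth differed between the libraries. DC held 2916266 and 6450540 UMIs (unique molecular identifiers, 1 per captured mRNA molecule). The median DC had 6768 and 13564 UMIs, 2386 and 3545 detected genes and 1.58% and 3.04% mitochondrial UMIs. The ratio of the median UMIs was 2.00 in DC and 1.11 to 5.69 in the other 10 annotated types. The libraries shared 96 cell barcodes, and 0 DC of either library had a shared barcode. Below, the level of an mRNA is its summed UMIs per 10000 UMIs of the same cells.

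DC take up proteins, cut them into peptides and show these to T cells on MHC molecules. Conventional DC depend on the receptor FLT3 and comprise cDC1, which hand antigens of dying cells to CD8 T cells, and cDC2, which mainly activate CD4 T cells. After activation, DC gain CCR7, migrate toward lymph nodes and are then called mature. Plasmacytoid DC are specialised in interferon production, share the dependence on FLT3 and present antigen poorly. Macrophages also carry MHC class II but stay in the tissue, depend on CSF1R and clear debris.

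The label was first compared with the markers. *Flt3* (chr5:147330741-147400489, minus strand, mm10) encodes the growth receptor of DC. Its level was 1.22 (1.09 to 1.35) and 1.61 (1.52 to 1.71) in DC, 0.0288 and 0.0439 in macrophages, and next highest in B cells, at 0.174 and 0.106. DC thus stood 7.01 and 15.3-fold above the next type. *Ccr7* (chr11:99144196-99155077, minus strand), the receptor for lymph node chemokines, reached 6.98 and 7.44 in DC. The next level was that of T cells, 1.15 and 1.14, and macrophages were at 0.248 and 0.431.

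The antigen presentation markers set DC apart from most types but less from macrophages. *Cd74*, the chaperone of MHC class II, was at 86.2 and 94.7 in DC, 52.6 and 92.1 in macrophages, 23.6 and 20.7 in B cells and at most 6.96 in any of the other types. *H2-Ab1* (chr17:34257689-34269419, plus strand), a chain of an MHC class II molecule, was at 40.2 and 43.7 in DC and at 18.7 and 32.4 in macrophages. DC had the highest level of all 4 markers among the 11 types in both libraries, but *Cd74* in the library labelled *Mir34a*ΔMye lay only 1.03-fold above macrophages.

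**Figure D1:**
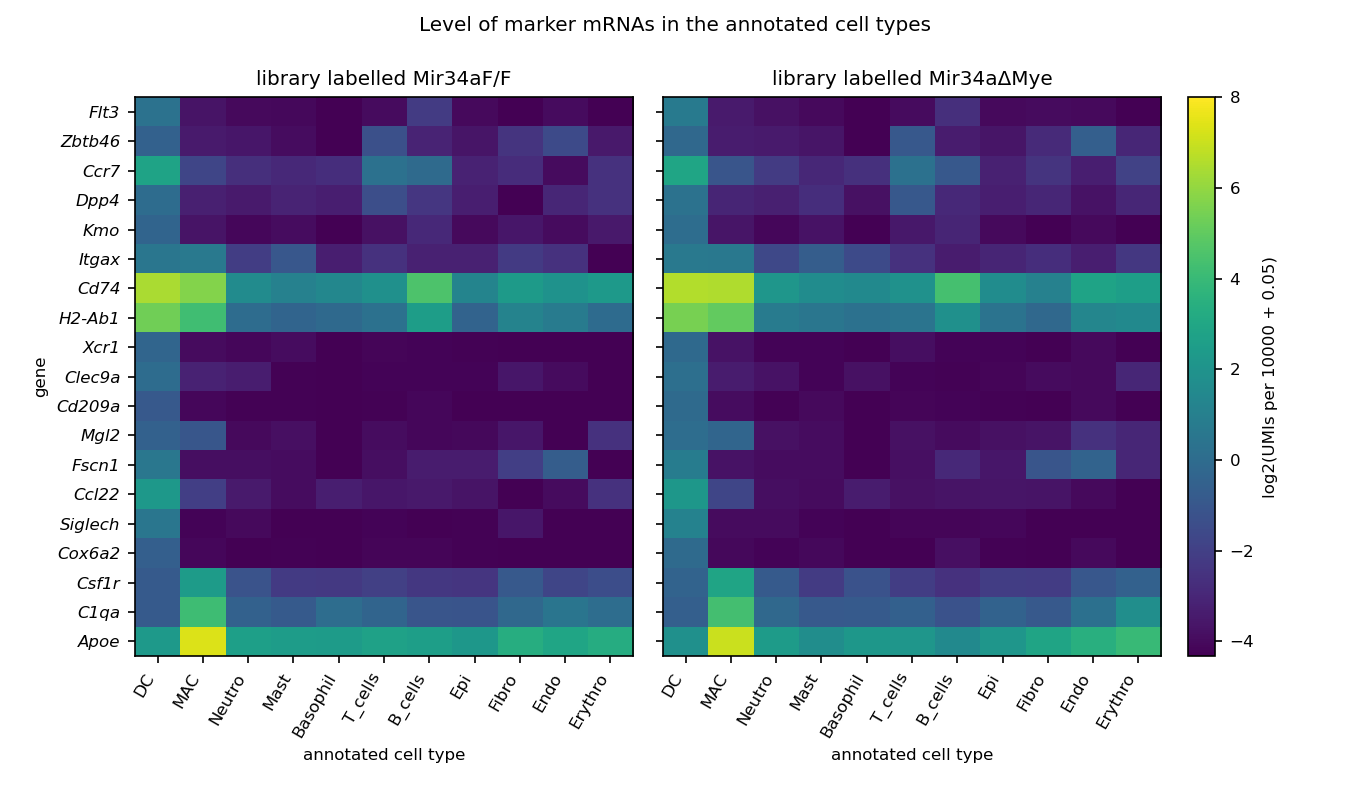
Level of marker mRNAs (rows) in the 11 annotated cell types (columns), colour on a log2 scale of UMIs per 10000 plus 0.05, 1 panel per library. *Flt3* and *Ccr7* stand out in DC, with levels of 1.22 and 6.98 in the library labelled *Mir34a*F/F, while *Cd74* and *H2-Ab1* are high in macrophages too.

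Shares of cells were also compared at equal depth. After every cell was thinned to 1000 UMIs, which left out 1 and 0 DC, 10.4% and 11.4% of DC held a *Flt3* UMI. Epithelial cells, which should lack *Flt3* and had medians of 5315.5 and 6623 UMIs before thinning, were at 0.105% and 0.254%. Macrophages, with medians of 7251.5 and 11227 UMIs, were at 0.410% and 0.347%. For *Ccr7* the thinned shares were 27.5% and 21.8% of DC, 2.46% and 2.20% of macrophages and 0.949% and 0.761% of epithelial cells. Without thinning, 46.1% and 57.3% of DC held *Flt3* and 43.8% and 44.5% held *Ccr7*. *Flt3* was thus found in few DC at 1000 UMIs, yet more often than in either other type.

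Other cell types were read in the same way. The 10 listed macrophage genes summed to 8.21 and 7.15 in DC and to 224 and 204 in macrophages, and the 7 T cell genes to 0.628 and 0.648 in DC. The 6 neutrophil genes summed to 12.4 and 7.82 in DC and to 10.7 and 12.8 in macrophages. A single DC gave 53.1% and 40.3% of the *S100a8* UMIs of DC, and 48.5% and 44.1% of those of *S100a9*. For *Retnlg* these shares were 57.0% and 38.5%, so the sum in DC rests in part on single cells. In 344 of 347 DC (99.1%) and 422 of 431 (97.9%), a DC list scored highest among the lists compared, and a macrophage score lay above in 0 and 3. The annotation rests on clustering of these same mRNAs, and more than 1 DC list was scored. A high share was thus set in advance and is no check of the label. Of the cells annotated as macrophages, 527 of 2208 (23.9%) and 531 of 2601 (20.4%) also had a DC list highest. *Krt8*, a keratin of epithelium, and *Igkc*, an antibody light chain, were found in DC after thinning as well. *Igkc* was in 55.5% and 79.8% of DC and in 61.1% and 89.9% of epithelial cells, so its presence in DC was not above background.

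The genes that most set DC apart from all other types included markers of cDC1, of mature DC and of plasmacytoid DC. By the ratio to the next highest type, the leading 15 were *Siglech*, *Xcr1*, *Klri1*, *Ccl22*, *Clec9a*, *Ccl17*, *Kmo*, *Pkib*, *Il4i1*, *Flt3*, *Cst3*, *Htr7*, *Ccr7*, *Qpct* and *Naaa*. *Siglech* encodes a surface lectin of plasmacytoid DC. It was at 1.40 and 2.15 in DC, which was 43.0 and 156-fold above the next type. *Xcr1*, the chemokine receptor of cDC1, was at 0.751 and 0.862, against 0.0139 and 0.0253 in macrophages. *Cst3*, the protease inhibitor cystatin C, was at 97.8 and 79.2 in DC, 8.04 and 6.83-fold above macrophages, the next type. *Kmo*, an enzyme of tryptophan breakdown, was at 0.730 and 1.0 in DC and at 0.0272 and 0.0313 in macrophages.

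Macrophages are the type most like DC, so levels were compared between these types within each library. The annotation rests on clustering of these same mRNAs, so this is a description. Of 3497 genes with a level of at least 0.5 and a UMI in at least 10% of cells in the higher type in both libraries, 209 (5.98%) were at least 2-fold higher in DC in both and 450 (12.9%) at least 2-fold lower. The median log2 ratio of all these genes was -0.02 and 0.05. A level or ratio taken as a mean over cells, which gives shallow cells equal weight, kept the direction of the genes named here but drew the extreme ratios inward. For *Flt3* in the library labelled *Mir34a*ΔMye, for example, the log2 ratio went from 5.20 to 4.55, and for *Itgae* from 4.89 to 3.81.

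**Figure D2:**
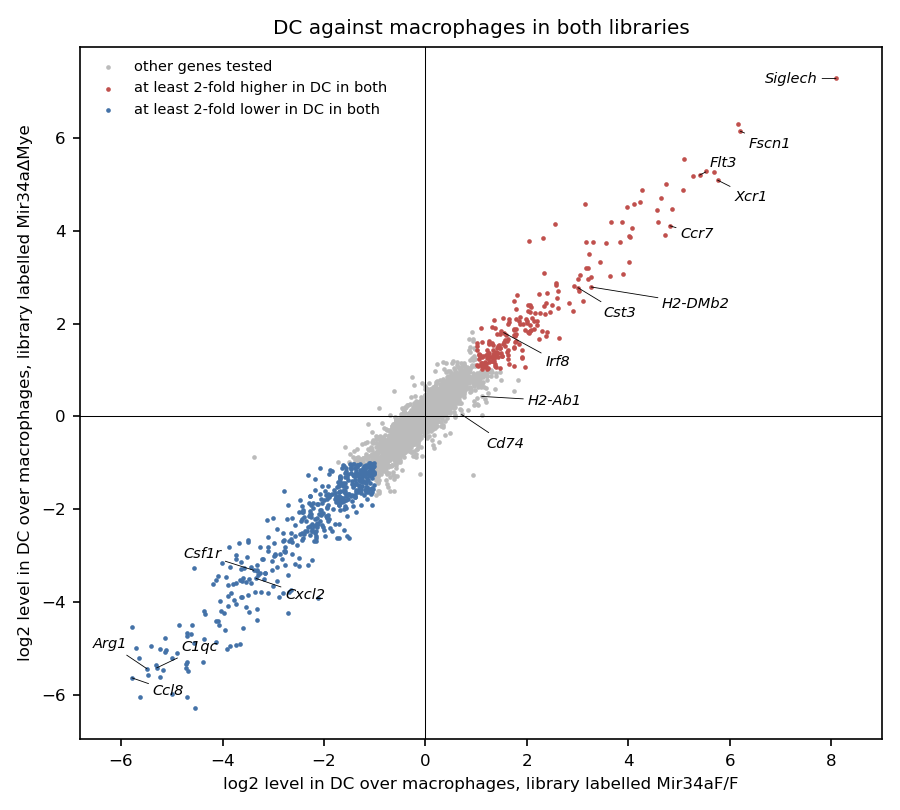
Log2 ratio of the level in DC over macrophages for each of the 3497 genes compared (points, coloured if at least 2-fold higher or lower in DC in both libraries), library labelled *Mir34a*F/F on the x axis and *Mir34a*ΔMye on the y axis. *Siglech* lies at 8.09 and 7.28, and *Ccl8* at -5.79 and -5.63.

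All 10 macrophage genes were at least 2-fold lower in DC, with a median log2 ratio of -4.40 and -4.71. *Csf1r*, the growth receptor of macrophages, was at 0.511 and 0.719 in DC and at 5.33 and 7.17 in macrophages. *C1qc*, a chain of complement C1q, was at 0.315 and 0.293 against 12.4 and 12.5. *Apoe*, a lipid carrier, was at 5.03 and 3.55 against 161 and 131. After thinning, 36.4% and 32.9% of DC held *Apoe*, below the 41.2% and 45.8% of epithelial cells, so these UMIs were not above background.

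The 10 genes lowest in DC relative to macrophages were *Ccl8*, *Ccl12*, *Mmp13*, *Arg1*, *Msr1*, *C1qc*, *C3ar1*, *Ms4a7*, *Pf4* and *Vcan*. *Arg1*, which breaks down arginine, was at 0.137 and 0.0543 in DC and at 6.16 and 2.35 in macrophages, 44.9 and 43.4-fold higher there. *Msr1*, a scavenger receptor, was at 0.0754 and 0.0667 against 2.99 and 2.72. *Mmp13*, a collagenase, was at 0.0377 and 0.0372 against 1.67 and 1.77. Of the 7 monocyte genes, 5 were lower in DC, beside 12.9% of all genes.

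In the opposite direction, the leading 10 were *Siglech*, *Serpinb6b*, *Fscn1*, *Gnb4*, *Klri1*, *Flt3*, *Klrd1*, *Adam23*, *Xcr1* and *Itgae*. *Fscn1*, the actin bundler fascin of mature DC, was at 1.41 and 1.75 in DC and at 0.0190 and 0.0247 in macrophages, a log2 ratio of 6.21 and 6.14. *Serpinb6b*, a serine protease inhibitor, had log2 ratios of 6.16 and 6.30. *Itgae*, the integrin CD103 of gut cDC1, was at 1.87 and 1.89 against 0.0550 and 0.0638. Each of these was low in macrophages of both libraries. *Gnb4*, a G protein subunit, was at 0.946 and 0.871 against 0.0205 and 0.0223.

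The genes of MHC class II presentation did not differ as 1 group. Of 13 that could be compared, 3 were at least 2-fold higher in DC in both libraries (5.98% of all genes), 2 were lower (12.9%), and the median log2 ratio was 0.71 and 0.32. The chains differed less between the libraries in DC than in macrophages. *H2-Aa* was at 38.6 and 41.7 in DC, and at 19 and 34.7 in macrophages. *H2-Eb1* was at 35.0 and 34.6 in DC, and at 15.3 and 27.7 in macrophages. The 2-fold difference against macrophages held for *H2-Ab1*, *H2-Aa* and *H2-Eb1* in the library labelled *Mir34a*F/F but not in the other.

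The 3 members higher in both libraries were *H2-Oa*, *H2-DMb2* and *Ciita*. *H2-Oa* and *H2-DMb2* belong to the accessory genes of class II, of which *H2-DMa* and *H2-DMb1* did not pass 2-fold. *H2-Oa* was at 0.525 and 0.538 in DC and at 0.0324 and 0.0364 in macrophages. *H2-DMb2* was at 0.871 and 0.811 against 0.0904 and 0.117. *Ciita*, the master activator of class II transcription, was at 0.669 and 0.902 against 0.179 and 0.372. The endosomal proteases went the opposite way. *Ctss* (cathepsin S) was at 4.83 and 5.45 in DC and at 18.9 and 17.6 in macrophages, and *Lgmn* (legumain) at 0.864 and 1.04 against 6.78 and 8.09.

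Promoters of these genes are known for a Y box, a CCAAT sequence that lies inverted (ATTGG) close to the start and is bound by NF-Y. The window of 250 bases before to 50 after the start was searched for ATTGG or CCAAT in RefSeq's table of build GRCm38.p6, which held 7 of the 8 classical and accessory class II genes searched. Each of the 7 had a match at 1 start or more, and 6 had ATTGG within 100 bases before the start. *H2-DMa* has more than 1 start in the table, and the match was found at only 1 of them. The share of all promoters that follows counts each start. Of all 32851 promoters of the table, 37.4% had a match in a window of this size. The lines below give 30 bases around the match on the strand of the gene, with ATTGG in capitals. They cover 2 chains that were 2-fold higher in DC in only 1 library and 2 accessory genes that were so in both.
H2-Aa: gagaattttctgATTGGttctggcgagttt
H2-Eb1: cctttgatgctgATTGGctcccagcactgg
H2-DMb2: agtcacttagtgATTGGactgacttaacta
H2-Oa: agaactgctctgATTGGctgcttaccgcaa
The windows lie at chr17:34287854-34287883 (minus strand), chr17:34305796-34305825, chr17:34145147-34145176 and chr17:34092324-34092353 (plus strand). The capitals begin 48, 59, 90 and 43 bases before the start. The match is a description of the letters, and it was present in the chains and in the accessory genes alike.

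MHC class I genes were closer between both cell types. Of 10 compared, 3 were higher in DC (5.98% of all genes), 0 were lower (12.9%), and the median log2 ratio was 0.15 and 0.25. Those called were *Tap1*, the peptide transporter, at 0.744 and 1.21 in DC against 0.364 and 0.573 in macrophages, and the immunoproteasome subunits *Psmb8* and *Psmb9*. *Psmb8* was at 4.51 and 5.42 in DC against 1.63 and 1.94, and *Psmb9* at 2.28 and 2.46 against 0.635 and 0.829. *B2m*, the light chain of class I, was at 15.3 and 16.0 in DC and at 23.2 and 22.2 in macrophages.

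Of 5 costimulatory ligands compared, 0 passed 2-fold in both libraries, where 5.98% of all genes were higher in DC and 12.9% lower, so the count says little about so short a list. *Cd80* was at 2.59 and 3.05 in DC against 1.40 and 1.71, and *Cd86* at 4.18 and 6.68 against 3.22 and 7.17. Both bind CD28 on T cells. Of 7 inhibitory ligands and receptors, 2 were higher and 2 lower in DC. *Pdcd1lg2* (PD-L2) was at 1.15 and 1.24 in DC against 0.223 and 0.266, and *Cd200*, a brake on myeloid cells, at 0.953 and 0.739 against 0.0493 and 0.0253. *Vsir* (VISTA) was at 0.182 and 0.253 against 1.09 and 1.27, and *Lgals9* (galectin-9) at 0.442 and 0.426 against 1.27 and 1.10. *Cd274* (PD-L1), at 3.13 and 3.93 against 2.18 and 3.19, did not pass 2-fold.

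Of 12 chemokines, 2 were higher and 6 lower in DC, beside 5.98% and 12.9% of all genes. *Ccl22* (chr8:94745590-94751699) and *Ccl17* (chr8:94810453-94812036) encode ligands of CCR4, a receptor of regulatory and type 2 T cells. *Ccl22* was at 4.72 and 4.49 in DC against 0.197 and 0.248 in macrophages. *Ccl17* was at 2.25 and 3.83 against 0.254 and 0.160. The neutrophil attractant *Cxcl2* was at 6.65 and 5.13 in DC against 67.4 and 57.7, and the inflammatory chemokine *Ccl3* at 0.569 and 0.397 against 3.68 and 5.48. Of 5 cytokines, 0 were higher and 3 lower in DC. *Tnf* was at 0.449 and 0.414 against 1.97 and 2.05, *Il1a* at 0.154 and 0.161 against 3.13 and 3.09, and *Osm* at 0.267 and 0.223 against 1.5 and 2.08. *Il1b* was at 18.2 and 19.8 in DC and at 23.2 and 28.3 in macrophages, so not every inflammatory cytokine was 2-fold lower in DC.

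*Il12b*, a subunit of IL-12 and IL-23, was at 1.26 and 1.27 in DC and at 0.0272 and 0.0644 in macrophages, and it stayed outside the comparison of genes because only 9.80% and 9.98% of DC held it. A single cell gave 46.9% and 35.8% of its UMIs in DC, so its level rests on few cells. *Il10*, an anti-inflammatory cytokine, was at 0.0274 and 0.0558 in DC against 0.384 and 0.813. *Tgfb1* was at 1.75 and 2.27 against 2.91 and 3.32. The 3 pattern receptors that could be compared, *Tlr2*, *Clec4e* and *Cd14*, were all lower in DC, beside 12.9% of all genes. *Cd14*, a co-receptor for bacterial lipopolysaccharide, was at 0.888 and 1.14 in DC against 11.1 and 11.2.

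Growth receptors and transcription factors held members on both sides. Of 11 growth receptors, 2 were higher (*Flt3* and *Kit*) and 2 lower in DC, and of 15 transcription factors 3 were higher and 2 lower. Of all genes, 5.98% were higher and 12.9% lower. *Kit*, the receptor for stem cell factor, was at 1.05 and 0.939 in DC against 0.123 and 0.167. *Zbtb46*, a factor of conventional DC, was at 0.648 and 0.842 against 0.0442 and 0.0464, and *Irf8*, required for cDC1, at 3.06 and 5.29 against 1.05 and 1.51. *Zeb2*, which favours cDC2 and plasmacytoid DC over cDC1, was at 1.47 and 2.43 in DC against 12.6 and 18.3.

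DC were then clustered on their own, with the libraries integrated, to see how they vary. The clusters were named from listed markers, so marker levels in them describe the names. Cluster 1 held 110 and 124 cells (31.7% and 28.8% of DC). The cDC2 list fitted it best, with 7 of 8 markers detected and a mean log2 fold over other DC of 1.11, but only *Cd209a* of that list was among its 10 leading genes, beside genes known from monocytes such as *Ms4a4c* and *Tgfbi*. It is therefore called by its number. Cluster 2 was cDC1-like, with 79 and 85 cells (22.8% and 19.7%). Cluster 3 was mature DC-like, with 65 and 68 cells (18.7% and 15.8%). Cluster 5 was plasmacytoid DC-like, with 32 and 52 cells (9.22% and 12.1%). Cluster 6 was named cycling-like, with 37 and 30 cells (10.7% and 6.96%). The listed cycling genes had a mean log2 fold over other DC of 2.05 there, but 0 of them were among its 10 leading genes. Those held histone genes, and also *Ppp1r14a*, found in 83.6% of its cells, and *Ffar2*, found in 61.2%. At a resolution of 1.0, only 13 and 7 cells were in a cycling-like cluster, so most cells of cluster 6 are not cycling-like at that setting. Values below are therefore given for cluster 6 by its number. The intervals of the libraries overlapped for each of these 5. Cluster assignment used mRNAs that themselves differed between the libraries, so no difference in size is drawn from these shares.

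Cluster 4, with 24 and 72 cells (6.92% with 4.48 to 10.1%, and 16.7% with 13.3 to 20.6%), also stayed unnamed. Its median cell held 2321 and 3020.5 UMIs, 34.3% and 22.3% of the median of all DC, and its leading genes, *Hmox1*, *F3*, *Ptn* and epithelial genes such as *Esrp1*, *Tspan1* and *Zg16*, are not DC markers. The listed B and plasma cell genes summed to 28.1 and 86 there, against 10.7 to 20.02 and 23.9 to 35.6 in the other clusters. The listed epithelial genes summed to 21.9 and 14.8, against 9.0 to 15.5 and 5.4 to 8.98 in the other clusters. Without integration, an unnamed cluster of low UMI counts held 49 and 79 DC (14.1% and 18.3%). It was led by other genes, *Ifit1bl1*, *Clu* and *Ly6g*, and whether it holds the same cells was not tested. With the listed subset markers left out of the clustering, a cluster of low UMI counts led by *Hmox1* was at 6.63% and 16.7%. With at least 500 genes and under 10% mitochondrial UMIs per cell, such a cluster, led by *Clu*, was at 8.83% and 17.5%. The part of shallow cells or of RNA from other cells in cluster 4 was not tested.

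**Figure D3:**
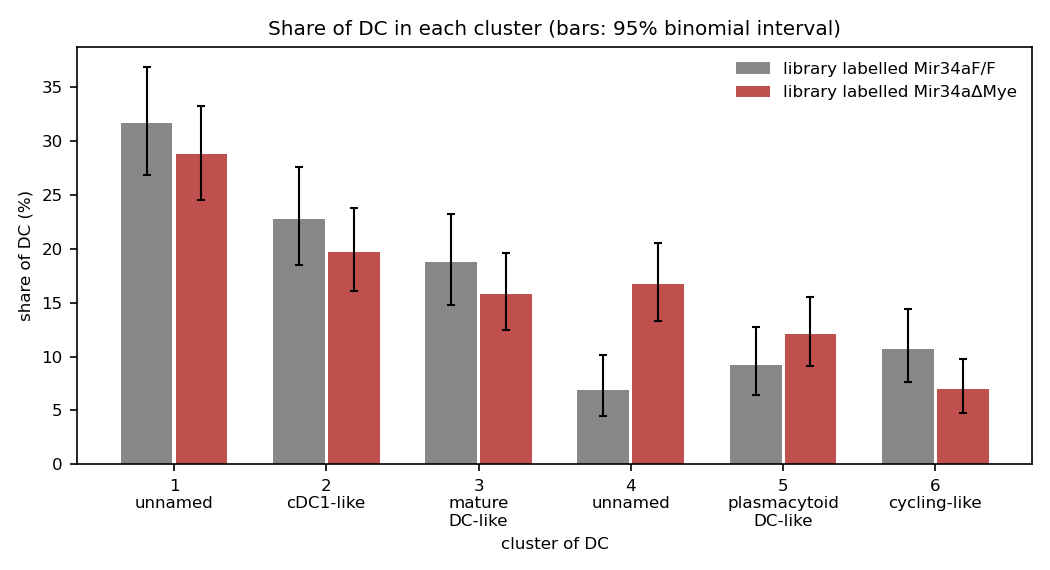
Share of DC in each of the 6 clusters (bars, % of the DC of a library) with exact 95% binomial intervals, 1 colour per library. Intervals overlap for 5 clusters, and cluster 4 is at 6.92% and 16.7% (without integration, a cluster of low UMI counts with other leading genes is at 14.1% and 18.3%).

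Each cluster had leading genes of its own. Cluster 1 was led by *Timp1*, *Ms4a4c* and *Cd209a*, cluster 2 by *Cyp26b1*, *Tlr3* and *Xcr1*, and cluster 3 by *Fscn1*, *Nudt17* and *Il12b*. Cluster 5 was led by *Dntt*, *Gm21762* and *Cd8b1* and also held *Cox6a2* and *Siglech*. Cluster 6 was led by replication-dependent histone genes. At least 3 listed cycling genes were found in 45.9% and 53.3% of its cells, whose median was 15012 and 24875 UMIs, and in 5.56% to 31.8% of the cells of the other clusters. Cells were not thinned for these shares, so they also follow depth.

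Single cells rarely carried markers of both cDC1 and cDC2. *Xcr1* was found in 50 and 69 DC, *Cd209a* in 59 and 105, and both in 1 and 5. *Xcr1* and *Siglech* were together in 1 and 1 cell. *Cd209a*, a lectin listed here for cDC2, met *Siglech* more often, in 16 of 37 and 25 of 63 cells with *Siglech*. Its level was 1.64 and 2.62 in cluster 1 and 1.54 and 1.15 in the plasmacytoid DC-like cluster, so *Cd209a* alone did not separate these. *Fscn1* and *Ccl22* were together in 54 of the 62 and 61 of the 72 cells with *Fscn1*.

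Class II presentation varied more among DC clusters than between the libraries. *H2-Ab1* was at 46.4 and 56.9 in cluster 1, 56.5 and 59.2 in cDC1-like and 50.9 and 55.1 in cycling-like cells. It was at 16.7 and 22.9 in mature DC-like and at 6.71 and 8.51 in plasmacytoid DC-like cells. *Ciita* followed the same order at its ends, with 1.31 and 1.49 in cDC1-like, 0.0940 and 0.299 in mature DC-like and 0.0532 and 0.175 in plasmacytoid DC-like cells. Mature and plasmacytoid DC-like cells thus had the lowest levels of the named clusters for both the class II chain and its activator.

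**Figure D4:**
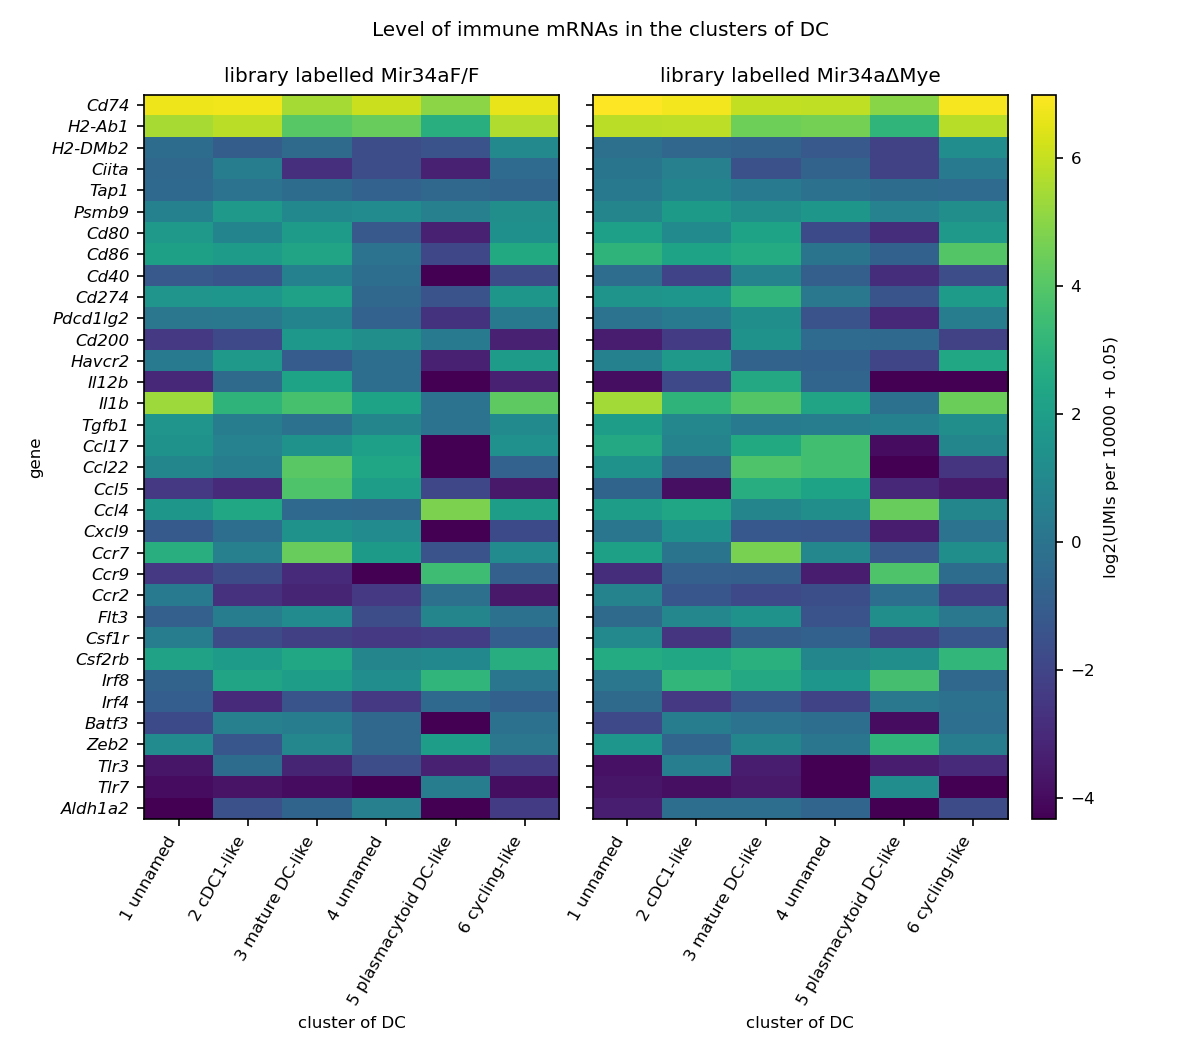
Level of immune mRNAs (rows) in the 6 clusters of DC (columns), colour on a log2 scale of UMIs per 10000 plus 0.05, 1 panel per library. *Ccl22* is highest in cluster 3, at 17.0 and 14.9, and *Il1b* in cluster 1, at 41.1 and 43.4.

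Mature DC-like cells were named from *Ccr7* and other genes of migrating DC. *Ccr7* was at 20.5 and 26.6 there, with 64.2% and 76.0% of all *Ccr7* UMIs of DC, and at 6.81 and 4.24 in cluster 1. *Ccl22* was at 17.0 and 14.9, with 78.8% and 70.3% of its UMIs. *Fscn1* was at 6.04 and 7.43 and *Il4i1*, an enzyme that consumes aromatic amino acids, at 4.28 and 4.79. The ligands of T cells were also present, with *Cd80* at 3.81 and 4.71, *Cd40* at 1.52 and 1.62, *Pdcd1lg2* at 1.66 and 2.43 and *Cd274* at 4.48 and 8.75. *Cd86* was at 4.81 and 6.28, below the 5.80 and 15.5 of cluster 6. In plasmacytoid DC-like cells *Cd274* was at 0.319 and 0.336 and *Cd86* at 0.213 and 0.526. *Ccl5*, a T cell attractant, was at 14.6 and 6.63, but 1 cell of the library labelled *Mir34a*F/F gave 24.3% of its UMIs in DC.

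The other clusters differed in what they secrete and sense. Cells of cluster 1 held *Il1b* at 41.1 and 43.4, against 8.12 and 8.09 in cDC1-like and 0.958 and 0.921 in plasmacytoid DC-like cells. They also had the monocyte-linked receptor *Ccr2* at 1.16 and 1.60, *Plac8* at 19.1 and 17.5 and *Csf1r* at 1.28 and 1.93, which was 57.7% and 70.9% of the *Csf1r* UMIs of DC. *Csf1r* in them stayed below the 5.33 and 7.17 of macrophages. cDC1-like cells had *Cst3* at 190 and 165, *Wdfy4*, needed for cross-presentation, at 6.91 and 10.0, *Itgae* at 4.35 and 4.73 and the double-stranded RNA receptor *Tlr3* at 0.749 and 1.40. The immune checkpoint gene *Havcr2* (TIM-3) was at 3.48 and 3.30 in cDC1-like and 3.82 and 5.46 in cycling-like cells.

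Plasmacytoid DC-like cells had *Siglech* at 21.0 and 19.3, *Tcf4*, their lineage factor, at 25.0 and 30.2, and *Bst2* at 18.5 and 18.0. The single-stranded RNA receptor *Tlr7* was at 1.33 and 2.29 and the gut-homing receptor *Ccr9* at 11.1 and 14.7. Most *Ccr9* UMIs of DC, 77.1% and 81.7%, came from these cells. The inflammatory chemokine *Ccl4* reached 27.3 and 20.4, against 4.85 and 5.17 over all DC. *Flt3* was at 1.70 and 2.38, above the 0.508 and 0.699 of cluster 1. *Zbtb46*, the factor of conventional DC, gave 0 UMIs in the former library, which allows a level of up to 0.160, and a level of 0.0585 in the latter. It was at 1.28 and 1.54 in mature DC-like cells.

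The deletion was read next. Features added to the reference by the study counted the *Mir34a* primary transcript and the Cre fused into *Lyz2*. In DC, the primary transcript had 4 and 14 UMIs, or 1.37 and 2.17 per 1000000 UMIs, a ratio of 1.58 (0.497 to 6.60) of *Mir34a*ΔMye over *Mir34a*F/F. Macrophages had 6.83 and 13.9 per 1000000, a ratio of 2.04 (1.68 to 2.49), epithelial cells 1.98 and 2.36 and T cells 0.746 and 0.709. The Cre feature had 2 and 5 UMIs in DC, 0.686 and 0.775 per 1000000, and 23.2 and 5.18 per 1000000 in macrophages, where Cre would be looked for only in the library labelled *Mir34a*ΔMye. In macrophages this feature was thus not higher in the library in which Cre is expected, and in DC the counts are too few to compare. The ratio of the Cre feature in macrophages, 0.223, was near that of *Lyz2*, 0.208, and a separate Cre feature gave 0 UMIs in DC and macrophages of both libraries. In macrophages, neither the primary transcript nor the Cre feature thus had the direction that the labels give. In neutrophils, where this Cre also acts, the primary transcript had a ratio of 0.774 (0.299 to 2.08), an interval that includes equal levels. The Cre feature was at 2.86 and 1.04 per 1000000 in neutrophils, a ratio of 0.363 (0.147 to 0.851). It was thus not higher there either in the library in which Cre is expected. Whether these features report the alleles or the labels are exchanged was not tested, and the direction of each difference between the libraries follows the labels. *Lyz2* itself, from whose locus Cre is driven, had 24 and 21 UMIs in DC, or 8.23 and 3.26 per 1000000, against 199.9 and 41.5 per 1000000 in macrophages. Its ratio was 0.396 in DC, 0.208 in macrophages, 0.329 in neutrophils, 0.375 in epithelial cells and 0.265 in T cells. *Lyz2* was thus lower in the library labelled *Mir34a*ΔMye in each of these types. Whether the inserted Cre lowers *Lyz2* was not tested. Features for the hairpin and the mature form gave 0 UMIs in DC, which allows up to 1.03 and 0.465 per 1000000.

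The product that the deletion removes is shown with its seed, bases 2 to 8, in capitals. RefSeq places it on chr4:150068473-150068494, plus strand, in GRCm38.p6.
mmu-miR-34a-5p: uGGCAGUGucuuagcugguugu
A poly(A)-based library does not count this mature RNA of 22 bases, so its level in DC was not measured. Of 15 genes that the study names in connection with miR-34a and that could be compared between the libraries in DC, 0 passed 2-fold, beside 0.651% higher and 0.769% lower of all genes, so that count says little. Of the 15, 14 had a ratio above 1, as had 60.1% of all genes, and the median log2 ratio was 0.49 against 0.07 over all genes. The 17 genes of the whole list summed to 24.2 and 33.9 in DC, 40.1 and 54.6 in macrophages and 32.1 and 41.6 in T cells. They summed to 16.4 and 16.6 in epithelial cells and to 24.5 and 22.7 in B cells. A higher sum in the library labelled *Mir34a*ΔMye was thus not limited to myeloid cells. *Csf1r* had a log2 ratio of 0.49 (0.22 to 0.77) in DC and 0.43 in macrophages. *Tgfbr2*, a receptor of TGF-β, had 0.83 in DC and 0.96 in macrophages, and *Axl*, a receptor for dying cells, 0.70 (0.15 to 1.29) and 0.39. The study named genes of this list from these tumors, so the list is not independent evidence of its direction. A gene also had to pass the filter only in the library where it was higher.

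Between the libraries, few mRNAs of DC differed 2-fold. Of 3381 genes compared, 22 (0.651%) were at least 2-fold higher in DC of the library labelled *Mir34a*ΔMye and 26 (0.769%) at least 2-fold lower. With every cell thinned to 1000 UMIs, 7 of the 22 and 3 of the 26 were called, and by the mean over cells 12 and 12. The 8 core DC genes, the 13 class II genes, the 8 cDC1 genes, the 5 cDC2 genes and the 15 transcription factors held 0 genes past 2-fold, and the 7 plasmacytoid DC genes held 1. These lists are too short for their counts to be set against the shares of all genes. Median log2 ratios were 0.21, 0.14, 0.21, 0.66, 0.33 and 0.54, against 0.07 over all genes. All 5 cDC2 genes and all 7 plasmacytoid DC genes compared had a ratio above 1, as had 60.1% of all genes. Each list held 8 genes. A gene had to pass the filter only in the library where it was higher, so members could enter through that library alone. No direction is drawn from these counts and medians. *Ccr7* had a log2 ratio of 0.09, *Cd74* 0.14, *H2-Ab1* 0.12 and *Flt3* 0.41.

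**Figure D5:**
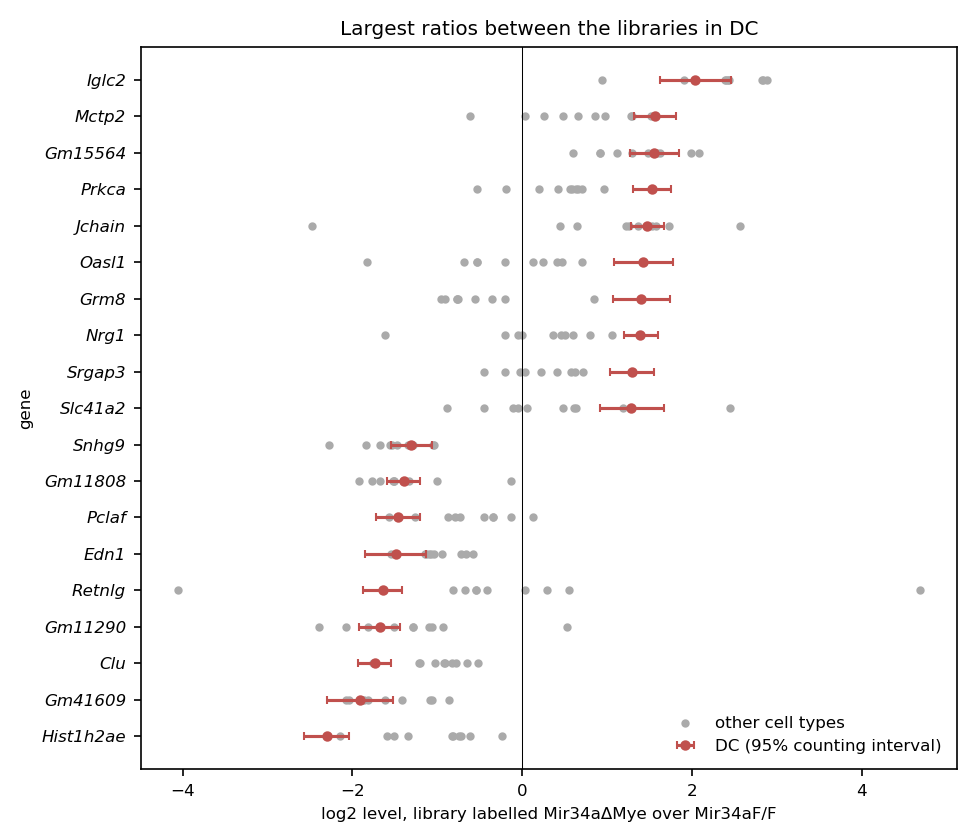
Log2 ratio of the level in the library labelled *Mir34a*ΔMye over *Mir34a*F/F (x axis) for genes with the largest ratios in each direction in DC (y axis). Red points are DC with exact 95% intervals and grey points are the other cell types. DC run from *Iglc2* at 2.03 to *Hist1h2ae* at -2.30.

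Many of the genes higher in the library labelled *Mir34a*ΔMye were highest in plasmacytoid DC-like cells. Of the 22, 14 had their highest level in the plasmacytoid DC-like cluster, which made up 12.1% of DC in that library and 9.22% in the other. Levels sum UMIs, so shares of cells do not give the weight of a cluster in them. The median cell of this cluster held 103% of the DC median of UMIs in that library and 85.0% in the other. Of all 3381 genes compared, 27.7% had their highest level in that cluster. *Mctp2*, a membrane protein that binds calcium, was at 0.532 and 1.57 in DC (log2 1.56, 1.31 to 1.81), and *Prkca*, protein kinase C alpha, at 0.645 and 1.85 (1.52, 1.30 to 1.75). Within the plasmacytoid DC-like cluster, *Mctp2* was at 7.13 and 13.6 and *Prkca* at 5.22 and 13.8, so the difference was smaller there but present. *Ccr9* was at 0.929 and 1.91 in DC, a log2 ratio of 1.04, and 0.40 (0.19 to 0.63) within the cluster. *Siglech* was at 1.40 and 2.15 in DC but at 21.0 and 19.3 within the cluster. With equal weight to each cluster, an alternative chosen after seeing the data, the log2 ratio was 0.87 for *Mctp2*, 0.46 for *Ccr9* and -0.08 for *Siglech*.

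Antibody genes were also among the 22. *Iglc2*, which is 1 of the 14 genes highest in the plasmacytoid DC-like cluster, was at 0.185 and 0.757 in DC, *Jchain* at 0.874 and 2.42 and *Igkc* at 6.90 and 15.6. The listed B and plasma cell genes summed to 15.2 and 32.1 in DC and to 22.4 and 47.8 in macrophages. *Iglc2*, *Jchain* and *Igkc* were at least 2-fold higher in 9, 7 and 7 of the other 10 types too. After thinning, *Igkc* and *Jchain* were found in a smaller share of DC than of epithelial cells in both libraries.

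*Oasl1*, an interferon-stimulated gene, was at 0.285 and 0.763 in DC (log2 1.42, 1.08 to 1.78). In the cDC1-like cluster it was at 0.408 and 1.95, but 1 cell gave 27.8% of its UMIs in DC of the latter library, and the log2 ratio of means over cells was 0.65. It was the 1 of 4 interferon-stimulated genes compared that passed 2-fold, beside 0.651% of all genes, and rests in part on that cell. *Nrg1*, a growth factor of the EGF family, was at 0.837 and 2.20 in DC (1.39, 1.19 to 1.59) and had a log2 ratio of 1.06 in macrophages. In mature DC-like cells *Nrg1* was at 1.75 and 6.43.

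Genes lower in the library labelled *Mir34a*ΔMye included those of cycling cells and of epithelium. Of the 26, 11 had their highest level in cluster 4, whose cells were shallow, and 5 in cluster 6. Of all genes compared, 14.2% and 17.9% had their highest level in these clusters. Cluster 6 made up 10.7% and 6.96% of DC, and its median cell held 222% and 183% of the DC median of UMIs. Its weight in the summed levels thus also differed between the libraries, and the part of this in the lower levels was not tested. Of 5 cycling genes compared, 3 were at least 2-fold lower (0.769% of all genes) and the median log2 ratio was -1.04. *Top2a*, the topoisomerase of dividing cells, was at 1.45 and 0.605, *Birc5* (survivin) at 0.549 and 0.250 and *Stmn1*, a regulator of microtubules, at 1.32 and 0.642. Within clusters, these genes were lower wherever a ratio was taken. The log2 ratio was -1.93 to -0.68 in 5 of 5 clusters for *Top2a*. It was -1.02 to -0.64 in 4 of 4 for *Birc5* and -1.13 to -0.33 in 4 of 4 for *Stmn1*. After thinning to 1000 UMIs the log2 ratio of *Top2a* went from -1.26 to -0.03. As a mean over cells it was -0.63. *Stmn1* was found in 5.20% and 6.03% of thinned DC, in 29.97% and 33.6% of DC before thinning and in 12.4% and 9.24% of thinned epithelial cells. The size of the lower *Top2a* thus varied with the weighting of cells. The thinned value rests on 1000 UMIs per cell and has no interval here. Whether deep cells or the loss of UMIs moved it was not tested. *Hist1h2ae*, a replication-dependent histone, was at 1.35 and 0.273, a log2 ratio of -2.30 and of -1.56 after thinning.

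Of 4 epithelial genes compared, 1 was at least 2-fold lower, beside 0.769% of all genes, and a list this short says little by its count. The gene was *Krt8*, at 5.99 and 2.77 in DC and at 6.5 and 3.41 in macrophages. The listed epithelial genes summed to 13 and 7.37 in DC and to 13.7 and 8.15 in macrophages. The small nucleolar RNA host gene *Snhg9* was at 1.03 and 0.415 in DC, and it was at least 2-fold lower in 10 of 10 other types. Of the 26 lower genes, 22 had a ratio below 1 in at least 9 other types, and 13 were at least 2-fold lower in at least 5 of them. Of the 22 higher genes, 8 had a ratio above 1 in at least 9 others. Most of the lower genes were thus lower in types other than DC too, and genotype and library cannot be told apart. *Clu* and *Retnlg* were lower too, but 1 cell gave 45.8% and 57.0% of their UMIs where the label was *Mir34a*F/F.

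Among immune mRNAs not called past 2-fold over all DC, several had a counting interval clear of equal levels, over all DC or within a cluster. This is not a call, since the interval holds no spread between cells or mice. The share of all genes with such an interval is not given, so the genes below are examples and are not said to stand out. Some ratios within clusters are above 2-fold. *Irf8* was at 3.06 and 5.29 in DC (log2 0.79, 0.68 to 0.90), at 4.82 and 8.88 in cDC1-like cells (0.88, 0.71 to 1.05) and at 8.68 and 12.5 in plasmacytoid DC-like cells (0.53, 0.29 to 0.78). In macrophages its log2 ratio was 0.53. *Ccl17* was at 2.25 and 3.83 in DC (0.77, 0.64 to 0.89), and 1.04 and 1.13 on the log2 scale within cluster 1 and mature DC-like cells, while in macrophages it was -0.66. The ratio of *Ccl17* was thus above 1 in DC and below 1 in macrophages, a difference that could not be tested. *Cd209a* was at 0.487 and 0.907 in DC (0.90, 0.63 to 1.17) and the lectin *Mgl2* at 0.597 and 2.06 in cluster 1 (1.79, 1.31 to 2.30). A single cell gave 5.76% and 11.4% of the *Mgl2* UMIs of DC.

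None of the 5 costimulatory and 5 inhibitory genes compared passed 2-fold between the libraries over all DC. Of all genes, 0.651% were higher and 0.769% lower, so that count says little. Within clusters, *Cd86* and *Cd274* were singled out after their values were seen. *Cd86* was at 5.80 and 15.5 in cells of cluster 6 (log2 1.42, 1.24 to 1.60), most of which are not cycling-like at the higher resolution. It was at 4.29 and 8.19 in cluster 1 (0.93), and at 3.22 and 7.17 in macrophages. *Cd274* was at 4.48 and 8.75 in mature DC-like cells (0.97, 0.78 to 1.16), and at 2.97 and 2.90 in cluster 1 and 3.08 and 3.01 in cDC1-like cells. *Cxcl9* was at 2.74 and 0.379 in mature DC-like cells, but 1 cell gave 48.5% of the former library's UMIs in DC. *Zeb2* was at 4.05 and 8.51 in plasmacytoid DC-like cells (1.07, 0.72 to 1.44).

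Immediate-early and heat shock genes are known to rise in handled tissue. Of 10 immediate-early and 8 heat shock genes, 0 passed 2-fold between DC and macrophages in both libraries (5.98% higher and 12.9% lower over all genes) and 0 between the libraries in DC (0.651% and 0.769%). The latter count says little about the lists. Their median log2 ratios between the libraries were -0.05 and -0.10. *Csf2* and *Ccl19* had 0 UMIs in DC of either library, which allows up to 1.03 and 0.465 per 1000000.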

How the data were processed

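Single-cell RNA-seq of colitis-associated tumors was read from the matrix of natural log values deposited by the authors, ln(1 + UMIs per 10000 UMIs of the cell), and from the deposited annotation of library and cell type. According to the submitters' processing notes, reads were counted with Cell Ranger 7.2.0 on mm10. The authors filtered cells by detected mRNAs and mitochondrial share, removed doublets with Scrublet, clustered the integrated libraries and named the types. Whole UMIs were recovered for 32291 genes, with deviations from whole numbers of at most 1.5e-10, and the total of each library's DC gave a depth of 2916266 and 6450540 UMIs.

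Levels were UMIs summed over cells per 10000. Genes were compared with a level of at least 0.5 and a UMI in at least 10% of cells in the higher of the compared groups, and counted as called past 2-fold. Intervals at 95% were exact binomial for shares, exact Poisson for sums and exact conditional for ratios. For shares of cells, each cell was thinned to 1000 UMIs. DC were clustered with Seurat 5.3.0 (R 4.3.3) at a resolution of 0.5 after integration of the libraries over 30 dimensions of 2000 variable genes. A cluster was named if at least 3 markers were detected and their mean log2 fold over other DC was at least 1, thresholds set after seeing the clusters, and stayed unnamed if its leading genes went against the name, or if its median UMI count was under 1/3 of that of DC in a library with no marker among its leading genes. Python 3.11.15, numpy 2.4.6, scipy 1.17.1 and pandas 2.3.3 were used.

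Named genes were those of the lists, the 15 with the largest ratio of DC to the next type, and the 10 in each direction with the largest ratio to macrophages or between the libraries, and clusters were described by their leading genes. Some genes that this rule or the lists named are not reported here. Members, lists and this rule were chosen with earlier results of these data known. The calculation of intervals was checked on simulated data. No test was made, since there was 1 library per genotype.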

Additional observations from a re-analysis of the deposited data

Results flagged for a closer look

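Signal in features outside the comparisons of genes was seen in DC. The feature for the *Mir34a* primary transcript had 4 UMIs in DC labelled *Mir34a*F/F and 14 UMIs in those labelled *Mir34a*ΔMye, both above the 3 UMIs that a count of 0 allows. The feature for Cre fused into *Lyz2* had 5 UMIs in DC of the library labelled *Mir34a*ΔMye, also above that limit, beside 2 UMIs in the other library. The part of RNA from other cells in these counts was not tested.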

How the results depend on the processing

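No paired analysis was possible because each genotype had 1 library and no test was made. With at least 500 genes and under 10% mitochondrial UMIs per cell, DC made up 2.42% and 3.41% of cells. Without that filter, they made up 3.99% and 4.95% of the cells that were not epithelial. At 1.5-fold, 449 genes were higher and 700 lower in DC than in macrophages, and 155 higher and 100 lower in the library labelled *Mir34a*ΔMye. Without a filter on low values, these were 1067 and 1371, and 701 and 2291. By the mean over cells, 15 genes were lower in that library, and after thinning to 1000 UMIs 13 were. Of these, 12 and 3 were among the 26, and of 25 higher after thinning 7 were among the 22. With equal weight to each DC cluster, chosen after seeing the data, 14 were higher, 10 of them among the 22. *Pclaf* reversed after thinning, from a log2 ratio of -1.46 to 0.037, and the cause was not tested. At resolution 1.0, cDC1-like cells made up 16.7% and 15.1% of DC and cycling-like cells 3.75% and 1.62%. Without integration, cycling-like cells were 3.75% and 1.16%. Without cluster 4, also chosen after seeing the data, cluster 1 was 34.5% of DC in the library labelled *Mir34a*ΔMye, against 28.8% with it. In the other library cluster 1 was 31.7% with cluster 4, and its share without it is not given. No order of the libraries is therefore drawn from the share of cluster 1. Under the alternatives, 422 values stayed within their interval or within 1.5 times the count, and 119 moved beyond it. For ratios between the libraries in DC, 20 moved, 1 reversed and 12 stayed after thinning. By the mean over cells 18 moved and 15 stayed, and with equal weight to each cluster 17 moved and 16 stayed. For DC against macrophages, 33 moved and 19 stayed by the mean over cells. Depth limits genes of low level, since DC held 2916266 and 6450540 UMIs.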
